A study of Mus musculus with 3 samples.

Results

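The 8 genes described here, Fmo2, Etl4, Fxyd1, Mapt, Cacna1e, Fibin, Sbspon and Hgf, were selected on their low level in lymphatic endothelial cells from the ears of mice depleted of Langerhans cells. They are 8 of the 31053 genes in the deposited single-cell count tables, and the contrast that chose them is given below as a description only. Their working name calls them adult lymphatic genes that are lost, and the data bear that name out only in part. In lymphatic cells of wild-type (WT) mice, 3 of the 8 (Fmo2, Fxyd1 and Mapt) were at least 2-fold higher at 8 weeks than at 4 weeks of age, and the others were at like levels at both ages or differed by less. All 8 were still counted in the lymphatic cells of mice depleted of Langerhans cells, at lower levels.

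The study profiled ear skin in 3 libraries. The adult Lang-DTA library came from 8-week-old Langerin-DTA mice (4 male, 6 female), which carry a transgene that places diphtheria toxin A under the control of langerin, a gene of Langerhans cells. The adult WT library came from 8-week-old C57BL/6J mice (6 male, 4 female), described as littermates where they serve as controls for Langerin-DTA mice, and the young WT library from 4-week-old C57BL/6J mice (5 male, 3 female). All mice were untreated. For each library, cells of 8 to 10 mice were sorted into 4 populations (lymphatic endothelium, blood endothelium, CD45+ cells, and cells with neither CD45 nor CD31), which were then mixed in equal parts. Each library is therefore 1 pool of mice and 1 sample, so no difference below has a replicate check or a p-value, and the intervals given are 95% intervals that cover counting error only. Because the mix was set by the sort, numbers of cells say nothing about how many such cells the ear holds.

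Lymphatic vessels of the skin start as blind-ended capillaries, which take up fluid and migrating immune cells and express Lyve1 and the chemokine Ccl21a. The capillaries drain into collecting vessels, which carry valves that keep lymph from flowing back. Prox1 is the transcription factor that sets lymphatic endothelial identity. Langerhans cells are the macrophage-related antigen-presenting cells of the epidermis, and they travel to lymph nodes through these vessels.

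Lymphatic cells were taken as cells with 2 or more unique molecular identifiers (UMIs, each standing for 1 captured RNA molecule) of Prox1. This gave 2367 cells in the adult Lang-DTA library, 1563 in the adult WT library and 4072 in the young WT library, with a median of 9496, 5171 and 7992 UMIs per cell in that order of libraries. All 12 genes of the lymphatic marker list were detected in all 3 libraries, and their summed level was 7981 CPM (UMIs of a gene per 1000000 UMIs of the gated cells) in adult Lang-DTA cells, 16837 CPM in adult WT cells and 13493 CPM in young WT cells. Within the gate, cells with 3 or more Lyve1 UMIs and at most 1 Foxp2 UMI, called Lyve1 cells here, numbered 932 in adult Lang-DTA, 550 in adult WT and 997 in young WT. Cells with 3 or more Foxp2 UMIs, called Foxp2 cells, made up 11.3% of lymphatic cells in adult Lang-DTA, against 34.0% in adult WT and 54.0% in young WT. Cells with 4 or more UMIs of Gdf15 and Gpnmb together made up 45.8% of the gate in adult Lang-DTA, against 8.51% in adult WT and 12.9% in young WT. The last class overlaps both others. The mix of classes thus differed between the libraries. The cut-offs are on raw UMIs, so these shares also depend on depth, which differed between the libraries. Each gene is given below within the classes as well as over all lymphatic cells. Markers of other cell types were also counted in the gate. The summed level of the 10 fibroblast markers was 411, 589 and 593 CPM in adult Lang-DTA, adult WT and young WT cells. That of the keratinocyte list was 769, 1257 and 544 CPM, and that of the blood endothelial list 1315, 2337 and 1549 CPM. In the blood endothelial cells described below, the blood endothelial list summed to 7803, 9334 and 8100 CPM in the same order. Between 39 and 50 barcodes were shared by any 2 libraries, under 0.4% of the barcodes of each.

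Start-site windows (250 bases before and 50 after an annotated start, RefSeq, GRCm38.p6) were matched by symbol for 6 of the 8 members (not Mapt or Sbspon), 10 windows in all. Windows of Fmo2, Etl4, Fibin and Hgf are shown because they hold the letters GTAAACA or AGAACA, the motifs found in the most members among 10 searched on both strands. GTAAACA, the core that forkhead factors bind, was in 3 of 6 members (Etl4, Fmo2 and Hgf) and in 3.65% of all 32851 windows. AGAACA, the core of steroid receptor sites, was in 3 of 6 (Fibin, Fmo2 and Hgf) and in 19.0% of all windows. TATAAA was in Etl4 and Fxyd1 (13.6% of all windows), CCAAT in Etl4 and Hgf (37.4%) and CACGTG in Etl4 (7.15%). None of the 10 windows held TGACGTCA (1.79% of all windows do), TGANTCA (7.81%), CCGGAA (14.9%), CAGGTG (20.2%) or GGGCGG (35.7%). A match is a match of letters and shows no binding, and members with several windows have more chances of one. Capitals mark the matches on either strand, written 5′ to 3′ on the strand of the gene; in the Hgf window a reverse match of AGAACA adjoins one of CCAAT.
Fmo2 (chr1:162898444-162898743, minus strand): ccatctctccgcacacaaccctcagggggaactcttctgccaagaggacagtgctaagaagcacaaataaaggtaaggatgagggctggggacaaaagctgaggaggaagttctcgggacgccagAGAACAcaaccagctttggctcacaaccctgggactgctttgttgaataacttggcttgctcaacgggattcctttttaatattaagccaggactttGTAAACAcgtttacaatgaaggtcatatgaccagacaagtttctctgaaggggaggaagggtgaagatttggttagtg
Etl4 (chr2:20289663-20289962, plus strand): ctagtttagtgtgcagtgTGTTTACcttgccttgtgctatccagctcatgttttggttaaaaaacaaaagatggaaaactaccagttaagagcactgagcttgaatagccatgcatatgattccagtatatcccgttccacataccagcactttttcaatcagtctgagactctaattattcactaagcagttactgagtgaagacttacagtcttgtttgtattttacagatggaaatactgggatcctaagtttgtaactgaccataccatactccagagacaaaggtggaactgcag
Fibin (chr2:110362944-110363243, minus strand): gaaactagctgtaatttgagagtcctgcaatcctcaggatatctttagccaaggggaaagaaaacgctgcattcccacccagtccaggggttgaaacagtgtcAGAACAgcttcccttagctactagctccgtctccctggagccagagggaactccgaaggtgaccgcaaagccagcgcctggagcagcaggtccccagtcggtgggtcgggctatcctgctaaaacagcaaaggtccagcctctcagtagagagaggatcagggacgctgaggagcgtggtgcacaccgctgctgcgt
Hgf (chr5:16553245-16553544, plus strand): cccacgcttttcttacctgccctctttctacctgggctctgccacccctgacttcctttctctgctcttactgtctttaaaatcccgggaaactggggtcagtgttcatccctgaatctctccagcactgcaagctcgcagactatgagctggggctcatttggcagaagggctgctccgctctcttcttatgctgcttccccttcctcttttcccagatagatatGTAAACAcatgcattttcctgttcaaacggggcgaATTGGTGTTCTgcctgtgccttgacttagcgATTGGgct

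Fmo2 codes for a flavin-containing monooxygenase, an enzyme that oxygenates nitrogen- and sulfur-containing compounds, and it is best known from the lung. It lies on mouse chromosome 1 (chr1:162874317-162898726, minus strand, GRCm38). Its shown window holds both GTAAACA and AGAACA. In lymphatic cells it was at 39.8 CPM (37.4 to 42.4) in adult Lang-DTA, 307 CPM (297 to 319) in adult WT and 145 CPM (142 to 149) in young WT. Adult WT was the highest library and adult Lang-DTA the lowest, and the 3 counting intervals did not overlap. The log2 ratio of adult Lang-DTA over adult WT was -2.95, and that of adult WT over young WT was 1.08. The level among cells called male and female by their sex-linked transcripts was 51.8 and 34.8 CPM in adult Lang-DTA, 276 and 346 CPM in adult WT, and 130 and 167 CPM in young WT, so the order of the libraries was the same in both sexes.

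Fmo2 differed most with age in the Lyve1 cells. There it was at 12.6 CPM in adult Lang-DTA, 151 CPM in adult WT and 19.4 CPM in young WT, a log2 ratio of 2.96 for adult over young WT. In Foxp2 cells it was at 43.0 CPM in adult Lang-DTA, 445 CPM in adult WT and 217 CPM in young WT, a log2 ratio of 1.03 for age. Among the lymphatic cells with Gdf15 and Gpnmb the levels were 41.5, 207 and 157 CPM in adult Lang-DTA, adult WT and young WT. In every one of these classes adult Lang-DTA was lowest.

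Blood endothelial cells (3 or more UMIs of Cdh5 and Ptprb together and none of Prox1 or Mmrn1; 2651 cells in adult Lang-DTA, 3506 in adult WT and 1728 in young WT) also expressed Fmo2. Its level in them was 174 CPM in adult Lang-DTA, 221 CPM in adult WT and 92.9 CPM in young WT. The log2 ratio was -0.35 for genotype and 1.25 for age, so the age difference was present in both kinds of endothelium while the genotype difference was under 2-fold in blood vessels. When each cell was thinned to 2500 UMIs, 6.01% of adult Lang-DTA, 32.3% of adult WT and 20.1% of young WT lymphatic cells held an Fmo2 UMI (12.0%, 41.3% and 31.0% without thinning). The matching share of thinned keratinocytes, which should lack the gene, was 0.220%, 0.0803% and 0.0791% (median depths of 11423, 13854 and 16379 UMIs before thinning in adult Lang-DTA, adult WT and young WT), so the lymphatic shares stood well above that background.

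Etl4, also called sickle tail (Skt), is known in mice for its role in the intervertebral disc. It spans 900.934 kb of chromosome 2 (chr2:19909780-20810713, plus strand). Lymphatic cells held 119 CPM of it in adult Lang-DTA, 772 CPM in adult WT and 474 CPM in young WT. The log2 ratio was -2.70 for genotype and 0.70 for age, which is under 2-fold. In Lyve1 cells the levels were 87.5, 885 and 432 CPM in adult Lang-DTA, adult WT and young WT, and the age ratio there was 1.03 on the log2 scale. In Foxp2 cells they were 176, 742 and 512 CPM.

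In blood endothelial cells Etl4 was almost level: 537 CPM in adult Lang-DTA, 539 CPM in adult WT and 560 CPM in young WT. The genotype ratio there was -0.00 on the log2 scale, with an interval of -0.04 to 0.03, against -2.70 in lymphatic cells. Keratinocytes held it too, at 298, 336 and 379 CPM in adult Lang-DTA, adult WT and young WT, and 49.9%, 52.0% and 56.3% of thinned keratinocytes had a UMI. Of thinned lymphatic cells 20.4% had an Etl4 UMI in adult Lang-DTA, against 66.5% in adult WT and 49.4% in young WT (41.6%, 78.2% and 71.2% without thinning), so keratinocytes give no background for this gene. Those lymphatic cells with a UMI held 3.01, 6.19 and 5.99 UMIs each in adult Lang-DTA, adult WT and young WT before thinning.

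Fxyd1 codes for phospholemman, a small membrane protein of the FXYD family that regulates the sodium pump. It lies on chromosome 7 (chr7:31051678-31057199, minus strand). Its level in lymphatic cells was 14.1 CPM in adult Lang-DTA, 77.2 CPM in adult WT and 16.6 CPM in young WT. Adult WT stood apart, and adult Lang-DTA was close to young WT. The log2 ratio was -2.45 for genotype, 2.22 for age and -0.23 for adult Lang-DTA over young WT. Male-called and female-called cells held 15.7 and 11.2 CPM in adult Lang-DTA, 78.9 and 79.7 CPM in adult WT, and 13.8 and 16.8 CPM in young WT. After thinning, a Fxyd1 UMI was found in 3.45% of lymphatic cells in adult Lang-DTA, 17.5% in adult WT and 3.56% in young WT (8.87%, 31.9% and 10.8% without thinning), against 0.147%, 0 and 0.0791% of thinned keratinocytes.

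The height of Fxyd1 in adult WT was present in each class of lymphatic cells. Lyve1 cells held 10.9, 109 and 16.6 CPM in adult Lang-DTA, adult WT and young WT. Foxp2 cells held 25, 68.3 and 17.4 CPM, so adult Lang-DTA was above young WT in that class (log2 ratio 0.53). In blood endothelial cells Fxyd1 was low in all 3 libraries, at 7.42, 6.85 and 8.2 CPM. It was far higher in supporting cells, where chondrocytes held 295, 279 and 155 CPM, fibroblasts 191, 194 and 132 CPM, and pericytes and smooth muscle 453, 381 and 245 CPM in adult Lang-DTA, adult WT and young WT. In none of these 3 cell types was the genotype difference as large as 2-fold. In Foxp2 cells the fibroblast list summed to 903, 38.3 and 531 CPM in adult Lang-DTA, adult WT and young WT. The part of such transcripts in the Fxyd1 values was not tested. Without lymphatic cells holding transcripts of other types, the genotype log2 ratio of Fxyd1 was -2.90, against -2.45 with them.

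Mapt codes for tau, a protein that binds and stabilises microtubules and is best known from neurons. It lies on chromosome 11 (chr11:104231390-104332090, plus strand). It was at 6.92 CPM in lymphatic cells of adult Lang-DTA, 56.9 CPM in adult WT and 14.3 CPM in young WT. The log2 ratio was -3.04 for genotype and 1.99 for age, and -1.05 for adult Lang-DTA over young WT. As with Fxyd1, adult WT stood alone at the high end. Lyve1 cells held 7.98, 93.5 and 25.1 CPM in adult Lang-DTA, adult WT and young WT, and Foxp2 cells 6.67, 38.5 and 11 CPM.

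Mapt was low in blood endothelium, at 3.75, 5.43 and 1.59 CPM in adult Lang-DTA, adult WT and young WT. In thinned lymphatic cells a Mapt UMI was found in 1.86% of adult Lang-DTA, 12.1% of adult WT and 3.28% of young WT cells (5.41%, 22.1% and 9.09% without thinning), against 0.624%, 0.723% and 1.42% of thinned keratinocytes. Mapt and Fmo2 tended to be found in different cells. Of adult WT thinned cells with an Fmo2 UMI, 5.48% (3.58 to 7.99) also had a Mapt UMI, and of those without Fmo2, 15.3% (13.1 to 17.7) had one. An antisense gene within Mapt was counted at no more than 4 UMIs in the lymphatic cells of any library.

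**Figure D1:**
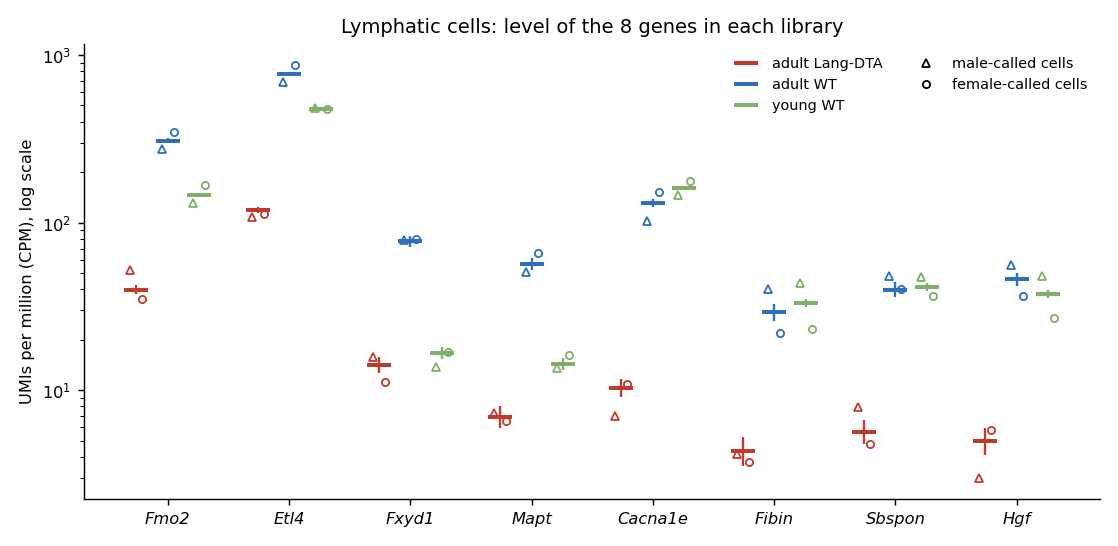
Level of the 8 genes in lymphatic cells of each library, in CPM on a log axis; horizontal marks are the library values with 95% counting intervals, and open triangles and circles are male-called and female-called cells of the same pool. The library value of adult Lang-DTA is lowest for every gene. For Fxyd1 its male-called cells (15.7 CPM) lie above those of young WT (13.8 CPM). Fmo2, Fxyd1 and Mapt are the genes for which adult WT stands at least 2-fold above young WT.

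Cacna1e codes for the pore-forming subunit of the R-type voltage-gated calcium channel. It spans 493.771 kb of chromosome 1 (chr1:154390731-154884501, minus strand). In lymphatic cells it was at 10.3 CPM in adult Lang-DTA, 130 CPM in adult WT and 161 CPM in young WT. Both WT libraries were high, and young WT was slightly the higher of them. The log2 ratio was -3.66 for genotype, -0.31 for age and -3.97 for adult Lang-DTA over young WT. A thinned lymphatic cell held a Cacna1e UMI in 2.83% of cases in adult Lang-DTA, 21.3% in adult WT and 23.8% in young WT (6.42%, 32.1% and 39.9% without thinning), against 0.0367%, 0.201% and 0.237% of thinned keratinocytes. The shares thus followed the levels. Foxp2 cells held more of it than Lyve1 cells in every library: 27.0, 187 and 207 CPM in Foxp2 cells of adult Lang-DTA, adult WT and young WT, and 5.04, 104 and 73.5 CPM in Lyve1 cells.

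Langerhans cells themselves held Cacna1e. Among leukocytes (2 or more Ptprc UMIs), cells with 5 or more UMIs of Cd207, the gene for langerin, numbered 5 in adult Lang-DTA, 363 in adult WT and 488 in young WT. In these the gene stood at 1686 CPM in adult WT and 1625 CPM in young WT, and 99.7% and 98.2% of them had a UMI. Leukocytes with no Cd207 UMI held 2.80, 3.04 and 5.63 CPM of Cacna1e in adult Lang-DTA, adult WT and young WT. Since Langerhans transcripts in the lymphatic gate would therefore carry Cacna1e, their level matters beside its result: Cd207 itself was at 0.0400 CPM in lymphatic cells of adult Lang-DTA, 31.4 CPM in adult WT and 28.2 CPM in young WT, and 1, 16 and 61 lymphatic cells had a Cd207 UMI. Without those cells the genotype ratio of Cacna1e was -3.54 on the log2 scale, against -3.66 with them. Leaving them out does not remove Langerhans transcripts from cells in which no Cd207 UMI was captured. The part of such transcripts in the lymphatic difference was not tested. In blood endothelium Cacna1e was at 3.91, 9.02 and 12.0 CPM and Cd207 at 0, 6.88 and 6.11 CPM in adult Lang-DTA, adult WT and young WT. The part of Langerhans transcripts in that smaller difference was not tested.

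Fibin, Sbspon and Hgf code for secreted proteins. Fibin, named fin bud initiation factor for its role in zebrafish fins, lies on chromosome 2 (chr2:110360917-110363183, minus strand). Sbspon, a protein with a somatomedin B and a thrombospondin type 1 domain, lies on chromosome 1 (chr1:15853862-15892722, minus strand). Hgf, hepatocyte growth factor, is the ligand of the receptor Met and lies on chromosome 5 (chr5:16553495-16620152, plus strand). Fibin was at 4.32 CPM in lymphatic cells of adult Lang-DTA, 29.1 CPM in adult WT and 33.3 CPM in young WT. Sbspon was at 5.64, 39.8 and 41.3 CPM and Hgf at 4.96, 45.8 and 37.6 CPM in adult Lang-DTA, adult WT and young WT. These 3 genes were at much the same level at both WT ages and lower in adult Lang-DTA. Their log2 ratios for genotype were -2.75 (Fibin), -2.82 (Sbspon) and -3.21 (Hgf), and for age -0.19, -0.05 (interval -0.22 to 0.11) and 0.29.

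Few cells carried these transcripts. After thinning, a Hgf UMI was found in 1.10% of adult Lang-DTA, 6.17% of adult WT and 6.12% of young WT lymphatic cells (2.11%, 10.3% and 10.6% without thinning). For Sbspon the thinned shares were 1.68%, 6.87% and 6.84% (3.04%, 9.53% and 11.4% without thinning). For Fibin they were 0.751%, 3.90% and 4.49% (1.69%, 6.40% and 7.59% without thinning), against 1.03%, 1.24% and 0.553% of thinned keratinocytes, so the share of Fibin in adult Lang-DTA lymphatic cells was no higher than in keratinocytes. Hgf and Sbspon were nearly absent from keratinocytes, with at most 0.237% of thinned cells positive in any library.

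Fibin and Sbspon were often found in the same cells, and Hgf in part of them. Of thinned lymphatic cells with a Fibin UMI, 47.1% in adult Lang-DTA (8 of 17 cells), 60.0% in adult WT (33 of 55) and 55.2% in young WT (96 of 174) also had a Sbspon UMI, whereas of cells without Fibin 1.34%, 4.72% and 4.57% had one. Hgf was found in 29.4%, 32.7% and 38.5% of the cells with Fibin and in 0.890%, 5.09% and 4.60% of those without. Most cells with Hgf lacked Fibin and most lacked Sbspon: of them 20% in adult Lang-DTA, 20.7% in adult WT and 28.3% in young WT had a Fibin UMI, and 32.0%, 35.6% and 28.3% a Sbspon UMI. Fmo2 was rarer in cells with Fibin in both WT libraries: in adult WT 3.64% of cells with Fibin and 33.5% of cells without it had an Fmo2 UMI, and in young WT 4.02% and 20.9%. In adult Lang-DTA the shares were 5.88% (1 of 17 cells) and 6.01%. Cells with Hgf held Fmo2 in 16.1% of cases in adult WT and 17.7% in young WT, against 33.4% and 20.3% of cells without Hgf, and the intervals with and without Hgf overlapped in young WT.

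Cldn11, a tight-junction claudin that was on the list of valve and collector markers, followed the pattern of the 8 genes closely across the gates (r of 0.934), and cells with 2 or more UMIs of it were set apart after their values had been seen. They numbered 32 in adult Lang-DTA, 94 in adult WT and 294 in young WT, or 1.35% (0.927 to 1.90), 6.01% (4.89 to 7.31) and 7.22% (6.44 to 8.06) of lymphatic cells. Fibin was at 116, 250 and 281 CPM in these cells in adult Lang-DTA, adult WT and young WT, and at 2.11, 6.49 and 9.02 CPM in lymphatic cells with no Cldn11 UMI. Sbspon was at 176, 340 and 388 CPM with Cldn11 and at 2.48, 9.2 and 8.45 CPM without it. These few cells held 41.7%, 58.2% and 64.8% of all Fibin UMIs of the lymphatic gate in adult Lang-DTA, adult WT and young WT, and 48.2%, 57.9% and 72.1% of all Sbspon UMIs. Hgf was at 62.1, 218 and 137 CPM with Cldn11 and 3.39, 21.8 and 24.7 CPM without it, and these cells held 19.4%, 32.3% and 28.1% of its UMIs. Foxc2, a transcription factor that valves need in mice, was at 87.9, 128 and 160 CPM with Cldn11 and at 21.5, 25 and 43.9 CPM without it.

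Both the share of Cldn11 cells and the levels of Fibin, Sbspon and Hgf within them were lower in adult Lang-DTA. Cldn11 was taken up because it followed genes picked as low in adult Lang-DTA, so a lower share there is expected from the choice. Fewer such cells also cannot be told apart from less Cldn11 per cell. Within Cldn11 cells the genotype ratio on the log2 scale was -1.10 (-1.61 to -0.62) for Fibin, -0.95 (-1.36 to -0.55) for Sbspon and -1.81 for Hgf, each smaller in size than over all lymphatic cells. In cells with no Cldn11 UMI the ratios were -1.62, -1.89 and -2.69. Transcripts of other cells also differed between these small groups: the fibroblast list summed to 1544, 22.5 and 1184 CPM in Cldn11 cells of adult Lang-DTA, adult WT and young WT, the keratinocyte list to 46.6, 1251 and 210 CPM, and fibroblasts hold Fibin (73.4, 46.0 and 67.8 CPM). Their part in the values of Cldn11 cells was not tested.

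**Figure D2:**
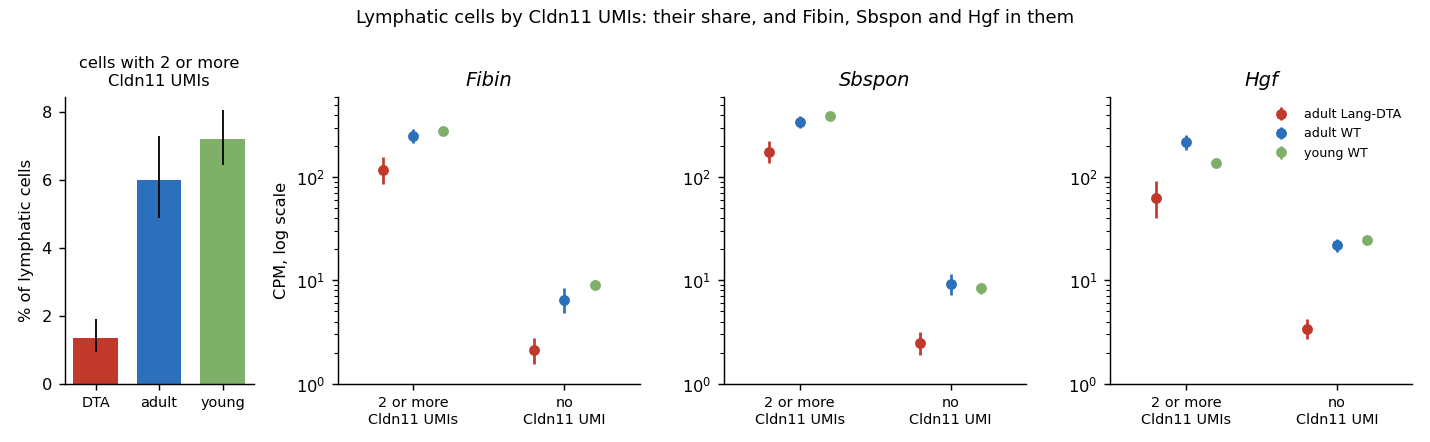
Lymphatic cells by Cldn11 UMIs: the left panel gives the percent of lymphatic cells with 2 or more, and the other panels give Fibin, Sbspon and Hgf in CPM on a log axis in those cells and in cells with none, with 95% counting intervals. The cells with Cldn11 are 1.35% of the gate in adult Lang-DTA, 6.01% in adult WT and 7.22% in young WT, and all 3 genes are higher in them than in the other cells in each library.

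Over all lymphatic cells, 8 of 8 genes were at least 2-fold lower in adult Lang-DTA than in adult WT, beside 8.47% of all 13101 genes with 50 or more UMIs over both libraries. The members were chosen by this contrast, so nothing is read from that count. Their median log2 ratio was -2.88, and that of all genes was 0.04. Both sex-called values of adult Lang-DTA lay below both of adult WT for 8 of 8 genes. These values are parts of the same pools and repeat the contrast that picked the genes. The share of all genes with that order was not counted, so nothing is read from it. For age, 3 of 8 were at least 2-fold higher in adult WT than in young WT, beside 3.83% of all 13487 genes, with a median log2 ratio of 0.50 against -0.10 for all genes. This comparison shares the adult WT library with the first, so a high adult WT value enters both. Against young WT, 7 of 8 were at least 2-fold lower in adult Lang-DTA, beside 9.42% of all genes; Fxyd1 was the exception. This comparison reuses the adult Lang-DTA values on which the genes were selected, so nothing is read from its count either.

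The lower level was present in each class of lymphatic cells. In Lyve1 cells the 5 genes with enough UMIs (Fmo2, Fxyd1, Mapt, Etl4 and Cacna1e) were all at least 2-fold lower in adult Lang-DTA than in adult WT, with log2 ratios from -4.37 (Cacna1e) to -3.31 (Fxyd1), beside 7.97% of all genes. Fibin, Sbspon and Hgf were scarce there, at no more than 6.56 CPM in any library. In Foxp2 cells 7 of 8 were at least 2-fold lower, beside 4.19% of all genes; Fibin, at 20.01, 37.2 and 36.4 CPM in adult Lang-DTA, adult WT and young WT, was the eighth, with a log2 ratio of -0.89. Sbspon was at 24.0, 56.2 and 46.0 CPM in these cells and Hgf at 22.0, 85.1 and 53.7 CPM. The fibroblast list summed to 903, 38.3 and 531 CPM in the Foxp2 cells, and the part of such transcripts was not tested. In the Gdf15 and Gpnmb class 8 of 8 were lower, beside 10.4% of all genes, with log2 ratios from -5.50 (Sbspon) to -2.14 (Etl4). All of these repeat the contrast that picked the genes. When Foxp2 cells were weighted to their adult WT share in every library, the ratios of Fibin, Sbspon and Hgf were smaller, at -1.73, -1.87 and -2.22, and the median over the 8 genes was -2.37.

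**Figure D3:**
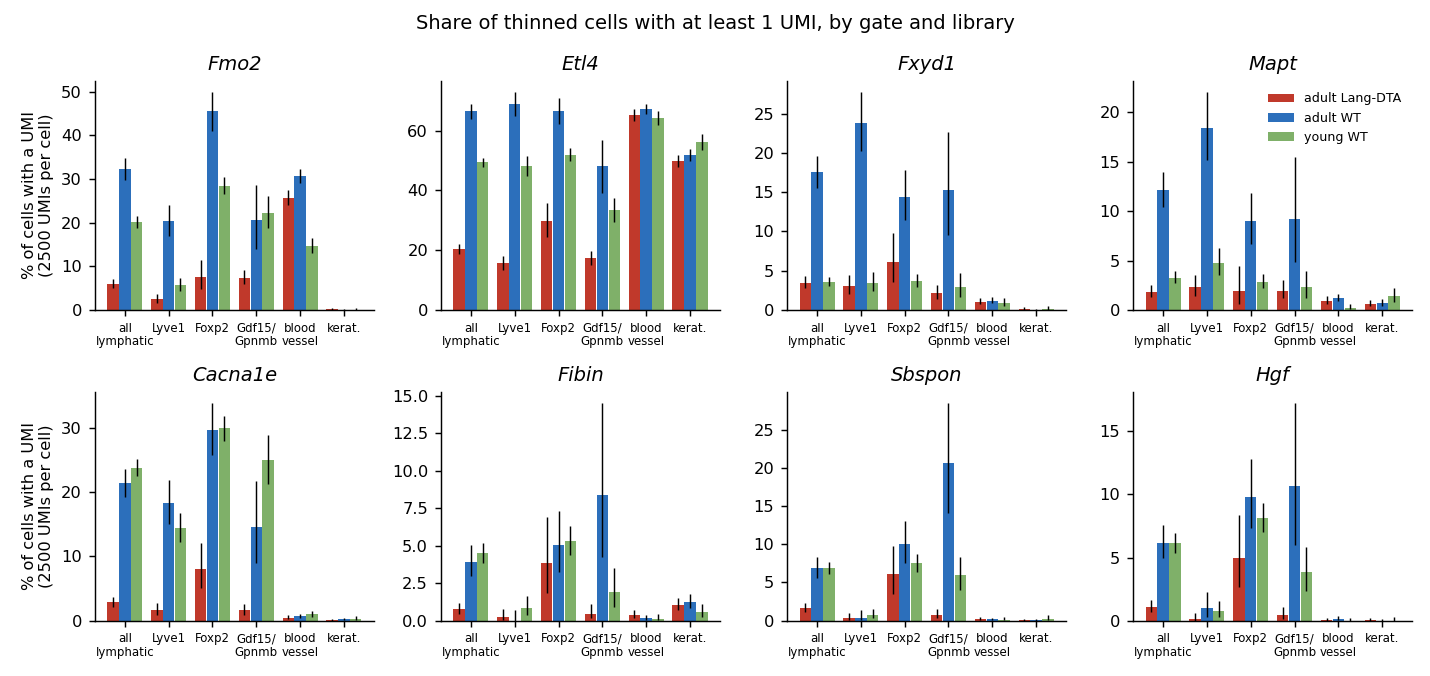
Percent of cells, each thinned to 2500 UMIs, with at least 1 UMI of each gene, by cell gate and library; bars are adult Lang-DTA, adult WT and young WT, and error bars are exact 95% binomial intervals. Over all lymphatic cells the shares are lowest in adult Lang-DTA for all 8 genes, narrowly so for Fxyd1 (3.45% against 3.56% in young WT). In blood vessel cells Fmo2 is at 25.7%, 30.7% and 14.7% and Etl4 at 65.3%, 67.2% and 64.2% in the order of the bars.

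Blood endothelial cells, which the choice of genes did not use, gave another picture. Of the 6 genes with enough UMIs there, 1 (Cacna1e, log2 ratio -1.20) was at least 2-fold lower in adult Lang-DTA, beside 1.3% of all 13867 genes. Another 1 (Fibin, 1.01) was at least 2-fold higher, beside 2.5% of all genes. For Fibin, adult Lang-DTA was higher than adult WT in male-called cells (1.85 against 0.431 CPM, from 14 against 8 UMIs). In female-called cells it was not (2.17 against 2.67 CPM, from 31 against 38 UMIs). Fmo2, Etl4, Fxyd1 and Mapt were within 2-fold, with log2 ratios of -0.35, -0.00, 0.11 and -0.53. For age, 3 of the 6 (Fmo2 at 1.25, Mapt at 1.77 and Fibin at 1.14) were at least 2-fold higher in adult WT than in young WT, beside 2.16% of all genes. Mapt and Fibin rest on levels of at most 5.43 CPM in blood vessels. In female-called cells Fibin was at 2.67 CPM in adult WT against 0.274 CPM in young WT, from 38 against 2 UMIs. In male-called cells it was at 0.431 against 0.438 CPM, from 8 against 5 UMIs. Such low counts limit what can be said of Fibin in either sex. Sbspon and Hgf stayed under 1 CPM there in all 3 libraries.

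**Figure D4:**
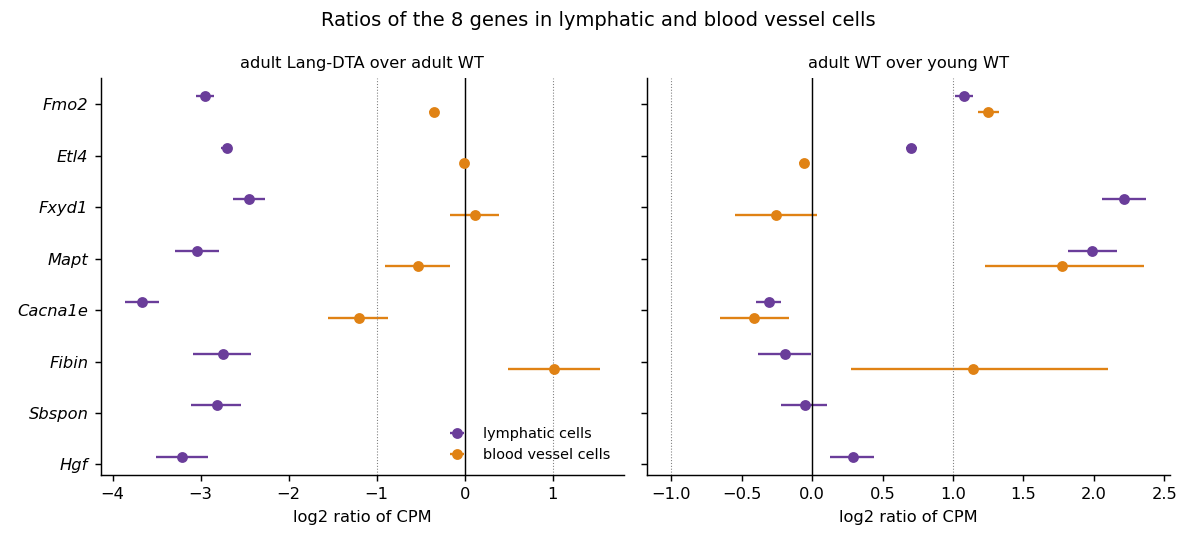
Log2 ratios of CPM with 95% counting intervals in lymphatic and blood vessel cells, for adult Lang-DTA over adult WT (left) and adult WT over young WT (right); dotted lines mark 2-fold, and genes with under 50 UMIs over both libraries are left out. For genotype the lymphatic points lie between -3.66 and -2.45, and the blood vessel points between -1.20 and 1.01.

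The 8 genes were also counted per cell, at 2500 UMIs each. Of these thinned lymphatic cells, 67.4% in adult Lang-DTA, 11.3% in adult WT and 26.2% in young WT held no UMI of any of the 8. The share depends on that depth, since without thinning Etl4 alone was found in 41.6% of adult Lang-DTA lymphatic cells. At least 2 of the 8 were found in 4.73%, 55.2% and 32.2%, and the mean number per cell was 0.381, 1.67 and 1.18 in the same order of libraries. Lyve1 cells with none made up 76.4%, 13.7% and 39.9%, and Foxp2 cells with none 50%, 8.22% and 20.1%. In blood endothelium 25.4%, 22.1% and 29.4% of cells held none, and 18.9%, 22.7% and 10.6% held at least 2. These are the members' own values in another form, and Etl4 was the most often detected of the 8 in lymphatic cells of each library.

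**Figure D5:**
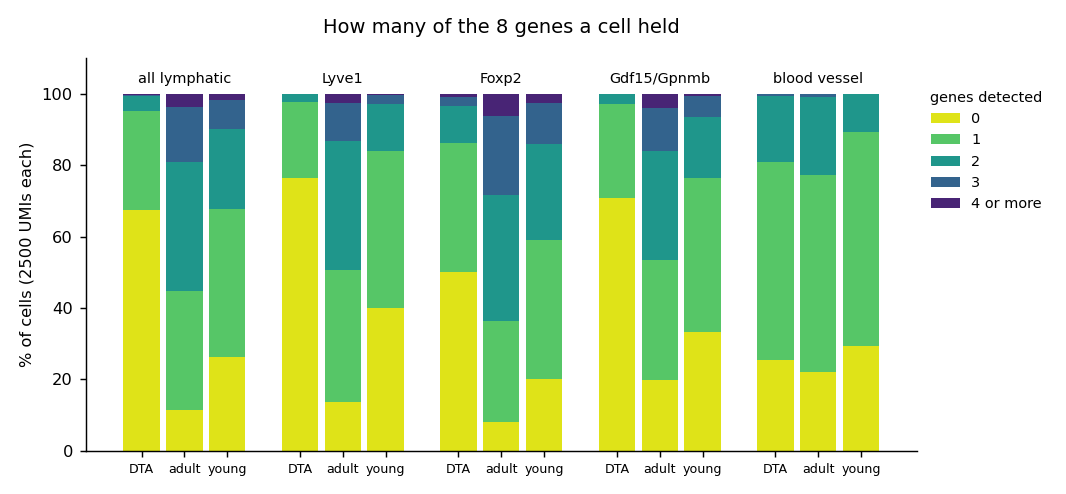
Percent of cells, each thinned to 2500 UMIs, that held 0, 1, 2, 3, or 4 or more of the 8 genes, by gate and library (DTA is adult Lang-DTA, adult and young are WT). Lymphatic cells with none of the 8 are 67.4% in adult Lang-DTA against 11.3% in adult WT, and blood vessel cells with none are 25.4% against 22.1%.

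Outside endothelium the genotype difference had no common direction. In fibroblasts Hgf was at 13.2 CPM in adult Lang-DTA, 33.8 CPM in adult WT and 14.1 CPM in young WT (log2 ratio of -1.36 for genotype), whereas Cacna1e was at 46.3, 19.7 and 10.6 CPM and Sbspon at 11.8, 4.05 and 13.1 CPM. The fibroblast gate also differed in makeup, since Angptl7 and Chad, genes of tissue around cartilage and of cartilage, were at 1940 and 679 CPM in adult Lang-DTA, 709 and 290 CPM in adult WT and 491 and 112 CPM in young WT. Its part in these differences was not tested. In chondrocytes Cacna1e was at 116, 124 and 99.4 CPM and Fibin at 82.2, 103 and 61.1 CPM in adult Lang-DTA, adult WT and young WT.

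Relatives of the members were read from fixed gene lists, for lymphatic cells of adult Lang-DTA against adult WT. In that comparison 8.47% of all 13101 genes were at least 2-fold lower and 11.8% at least 2-fold higher. Counts of 1 in lists of 10 or 14 genes are near these shares, so nothing is read from them. Among the flavin monooxygenases, Fmo1 was at 26.8 CPM in lymphatic cells of adult Lang-DTA against 121 CPM in adult WT, and Fmo5 at 6.88 against 22.8 CPM, both at least 2-fold lower in adult Lang-DTA. Of 10 sodium pump and FXYD genes 1 was at least 2-fold lower in adult Lang-DTA (Fxyd7, 0.360 against 4.39 CPM) and 1 higher (Atp1b1, a beta subunit of the pump, 22.2 against 7.04 CPM). Fxyd7 was also higher with age, at 4.39 CPM in adult WT against 0.900 CPM in young WT, as Fxyd1 was. Of 14 microtubule-associated protein genes 1 was lower (Mtus1, 64.1 against 137 CPM) and 1 higher (Stmn1, which codes for a microtubule-destabilising protein, 138 against 53.1 CPM).

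The counts that follow also stand beside 8.47% of all genes lower and 11.8% higher by at least 2-fold. Of 8 other voltage-gated calcium channel subunit genes 3 were lower in adult Lang-DTA and 1 higher. Cacnb2, a beta subunit, was at 8.28 against 21.5 CPM. In the list of Hgf, Met and the proteases and inhibitors around them, 3 of 11 were lower and 1 higher: Spint2, an inhibitor of proteases that activate Hgf, was at 29.2 against 70.0 CPM, and Plau, the urokinase gene, at 58.5 against 27.7 CPM. Of 10 genes for other proteins with thrombospondin type 1 repeats, as in Sbspon, 6 were lower, among them Adamts1 at 81.2 against 238 CPM. Thbs1 was higher, at 286 against 51.1 CPM. Of 15 regulators of lymphatic endothelium 4 were lower and none higher: Hey1, a Notch target, at 10.1 against 39.7 CPM, Tek, the angiopoietin receptor, at 67.7 against 176 CPM, Klf4, a flow-responsive transcription factor, at 814 against 1930 CPM, and Nr2f2, a partner of Prox1, at 336 against 789 CPM. Prox1 itself was at 850, 1090 and 1188 CPM in adult Lang-DTA, adult WT and young WT, within 2-fold. Immediate early genes are induced within minutes of stimulation or of tissue digestion. Of 12 such genes 6 were at least 2-fold lower, beside 8.47% of all genes, and 6 were within 2-fold. Egr1, for example, was at 862 against 1973 CPM. The median log2 ratio of the 12 was -1.01, against -0.14 in blood endothelium. The part of immediate early genes in the members' values was not tested.

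The pattern of the 8 genes was also compared with that of other genes over 15 groups (3 libraries by the lymphatic gate, its 3 classes and blood endothelium), which share cells and libraries. Among 8729 genes searched, the highest Pearson r with the members' mean log2(CPM + 1) was 0.949 for Gstm1, a glutathione transferase, and 0.934 for Cldn11, the claudin described above. Mat2a, Col4a6, Pcca, Kcnk5, Btnl9 and Lmo4 came next, with r from 0.929 to 0.916. Gstm1 was at 33.2, 82.6 and 64.4 CPM in lymphatic cells of adult Lang-DTA, adult WT and young WT, Cldn11 at 5.76, 41.2 and 38.9 CPM, and Btnl9, a butyrophilin-like gene, at 13.8, 72.3 and 101 CPM. Among the members themselves Hgf was nearest to their mean (r of 0.934) and Etl4 farthest (r of 0.529). Each member is part of that mean, which raises its r, so these values are not comparable with those of other genes. Both Etl4 and Fmo2 (r of 0.666) were also present in blood vessels.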

How the data were processed

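Single-cell RNA was captured with the 10x 3' v4 chemistry from 1 pool of mice per library. The authors deposited UMI counts per gene and barcode, already restricted to cells; Cell Ranger 8.01 on GRCm38 is named in the submitters' processing notes and 8.0.1 in the file headers. The sources used here give neither the annotation release nor whether intronic reads were counted; 30934 of the 31053 gene identifiers were found in GENCODE M21. The labels' protocol also names an imiquimod condition, which is not analysed here.

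Barcodes were kept if they held 500 genes or more and 1000 UMIs or more, with no more than 10% of UMIs from mitochondrial genes: 12941 of 13540 in adult Lang-DTA, 12621 of 13600 in adult WT and 12399 of 12864 in young WT, from 124590777, 128595813 and 137441575 UMIs. No doublet caller was run, so cells that hold transcripts of several types remain, and leaving out lymphatic cells with such transcripts is 1 of the alternatives. Cells were gated on raw UMIs. CPM is the sum of a gene's UMIs over the gated cells per 1000000 UMIs of those cells. Ratios carry exact conditional 95% intervals, CPM exact Poisson intervals and shares of cells exact binomial (Clopper-Pearson) intervals. To compare shares across depths, each cell was thinned at random to 2500 UMIs; shallower cells were left out (103 lymphatic cells in adult Lang-DTA, 152 in adult WT and 199 in young WT). A gene entered a count of 2-fold differences with 50 or more UMIs over both libraries. Calculations used Python 3.11.15, numpy 2.4.6, scipy 1.17.1, pandas 2.3.3 and matplotlib 3.10.9, and the ratio code was tested on simulated data.

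Groups follow the labels. With 1 library per group there is no test and no pairing. Named beyond the members were, from each list, at most 4 genes per direction at or past 2-fold, and the 8 genes closest in pattern among those at 20 CPM or more in a group; genes used to describe a gate were chosen after their values were seen. The members and the gene lists were chosen with earlier results of these data known. Alternatives covered the gate, the mix of cells, depth, the sexes, scaling and the minimum of UMIs. A result of the flavin monooxygenase list is not reported here.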

Additional observations from a re-analysis of the deposited data

Results flagged for a closer look

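Some of the 8 genes differed in the opposite direction in another cell type than in lymphatic cells, by at least 1.5-fold there; in no case was the difference between the cell types tested. For adult Lang-DTA over adult WT, where all 8 were lower in lymphatic cells, 3 cell types gave higher values. In fibroblasts the log2 ratio was 1.54 for Sbspon (11.8 against 4.05 CPM), 1.23 for Cacna1e (46.3 against 19.7 CPM), 0.67 for Fibin (73.4 against 46.0 CPM) and 0.64 for Etl4 (56.2 against 36.1 CPM). In leukocytes it was 1.57 for Fibin (4.01 against 1.35 CPM), 0.97 for Hgf (4.08 against 2.09 CPM) and 0.64 for Fxyd1 (14.6 against 9.40 CPM). Langerhans cells (5 or more Cd207 UMIs) numbered 5 in adult Lang-DTA, against 363 in adult WT. Among leukocytes with no Cd207 UMI, Fibin was at 4.05 against 1.55 CPM, Hgf at 4.13 against 1.32 CPM and Fxyd1 at 14.8 against 10.5 CPM. In blood endothelial cells the log2 ratio of Fibin was 1.01 (3.10 against 1.54 CPM). There Fibin was higher in male-called cells (1.85 against 0.431 CPM, from 14 against 8 UMIs). It was not higher in female-called cells (2.17 against 2.67 CPM, from 31 against 38 UMIs).

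For adult WT over young WT, Mapt was lower in keratinocytes (log2 ratio -0.97, 2.79 against 5.45 CPM) though higher in lymphatic cells. Etl4 was lower in chondrocytes (log2 ratio -1.67, 7.30 against 23.1 CPM) though higher in lymphatic cells.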

How the results depend on the processing

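No paired analysis was possible because each group is 1 library. All 8 genes were at least 2-fold lower in lymphatic cells of adult Lang-DTA than of adult WT in each of 15 alternatives, and their median log2 ratio ran from -3.08 to -2.37 over the 14 that give one. It moved beyond counting error, from -2.88, without Gdf15 and Gpnmb cells (-2.57), with the gate set on thinned cells (-2.62) and with Foxp2 cells weighted to their adult WT share (-2.37, added after seeing the data). For age the number of genes at least 2-fold higher in adult WT stayed 3, or 4 at a 1.5-fold threshold, and the median of 0.50 moved to 0.60 without cells holding transcripts of other types, to 0.65 with cells weighted equally, to 0.37 in male-called and 0.65 in female-called cells, and to 0.68 with the Foxp2 weighting. With no minimum of UMIs, 22.6% of all genes were at least 2-fold lower for genotype and 20.1% at least 2-fold higher for age, so the background shares depend on that minimum. Of the single-gene ratios 76 of 112 for genotype and 82 of 112 for age stayed within the counting interval; Sbspon fell to -1.69 without Gdf15 and Gpnmb cells. Leaving out lymphatic cells with a Cd207 UMI, or with a Selp, Sele or Ackr1 UMI, was also added after seeing the data; with the second, Fmo2 was at -3.35. The cause of these moves was not tested. Shares of cells depend on depth for all 8 genes. Fibin, Sbspon and Hgf rest on 108, 141 and 124 UMIs in adult Lang-DTA lymphatic cells, which limits what can be said of their classes there, and no setting replaces a second library.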

Other observations

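Lymphatic cells with neither a Lyve1 nor a Foxp2 UMI made up 27.1% of the gate in adult Lang-DTA (641 cells), against 9.47% in adult WT (148 cells) and 5.82% in young WT (237 cells). Etl4 was at 133 CPM in these cells in adult Lang-DTA, 525 CPM in adult WT and 329 CPM in young WT. Fmo2 was at 76.9, 261 and 115 CPM in adult Lang-DTA, adult WT and young WT. Sbspon was at 3.90, 57.1 and 83.2 CPM and Fibin at 2.11, 41.4 and 61.3 CPM in the same libraries, so in WT ears both genes were at higher levels in these cells than in the Lyve1 cells. Cacna1e was at 8.76 CPM in adult Lang-DTA, 25.6 CPM in adult WT and 160 CPM in young WT, so adult WT was below young WT for it in these cells. Median depths were 8704, 4675 and 8139 UMIs per cell, and the lack of a UMI of both genes depends on depth.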
